A study of Mus musculus with 6 samples.

Results

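The ligands and receptors of axon guidance were followed in samples labelled as motor neurons of the mouse brainstem. There were 3 RNA samples from SOD1 mice and 3 from wild type (WT) mice, each on 1 Affymetrix mouse array. Members were chosen by gene symbol: all semaphorins and plexins, EphB receptors, ephrins, both neuropilins, Slit1 to Slit3, Robo1 and Robo2, netrin 1 and its receptors Dcc and Unc5a to Unc5d. The rule gave 55 of the 18193 genes that have a probe set with 1 symbol, read by 121 probe sets. One of them, Plxna4os1, is an antisense transcript of a plexin gene and no plexin. The label SOD1 refers to the enzyme superoxide dismutase 1, mutated in some inherited motor neuron disease. The allele of these mice, the age, strain and sex of both groups, and how the motor neurons were isolated are not stated in the labels. Total RNA of both groups went through 2 rounds of T7-based amplification. Whether each sample is another animal is not stated either, and the p-values therefore cover the spread among arrays, which may be technical.

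Axon guidance cues steer growing axons and, in the adult, help to hold synapses and vessels in place. Class 3 semaphorins are secreted and act through a neuropilin, which binds the ligand, and a plexin, which signals, while most other semaphorins sit in the membrane and bind plexins directly. Ephrins are membrane-bound ligands of Eph receptor kinases and signal in both directions. Slits repel axons through Robo receptors, and netrin attracts them through Dcc or repels them through Unc5 receptors. Many of these genes are also used by endothelial and glial cells, so their RNA in a neuronal sample need not come from neurons.

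Values are log2 of the quantile-normalised signal plus 16, differences are SOD1 minus WT on that scale, ± SE, with n = 3 arrays per group, and the added 16 understates the change of low genes. A probe set was tested where its mean over the 6 arrays lay above the 40th percentile of all probe sets, at 7.38. This kept 83 of the 121 member probe sets, for 48 of the 55 genes. The member just inside was a Plxnc1 probe set with a mean of 7.40 and the member just outside an Efna2 probe set with a mean of 7.37. The background level, taken from 27 bacterial control probe sets, was 7.21 to 7.61 in SOD1 and 7.23 to 7.35 in WT. Of the 83 kept, 65 were above it on all 6 arrays. The table had no probe set at 0. Signals of different probe sets are not comparable, so no member is ranked by its level.

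Xist and several cell type lists also differed among the arrays. Xist, a transcript of the inactive X chromosome in females, read 12.83, 12.91 and 5.71 in SOD1 replicates 1, 2 and 3 and 7.07, 6.60 and 5.76 in WT, so SOD1 replicates 1 and 2 stood apart from the other 4 arrays. SOD1 replicate 3 was the only SOD1 array near the WT level of Xist. Fits with the level of Xist as a term therefore rest largely on that array against WT, and their p-values carry this limit. Of the cell type lists, 11 of 11 microglial probe sets were higher in SOD1, with a summed signal (log2) of 16.55 to 17.41 in SOD1 and 13.32 to 15.28 in WT, and the most significant of them, C1qa, rose by 3.00 ± 0.37 (limma, adjusted p = 0.0222). Of 21 astrocyte probe sets 18 were higher, led by Aqp4 (1.61 ± 0.22, limma, adjusted p = 0.0317), with sums of 17.66 to 17.74 in SOD1 and 17.27 to 17.34 in WT. Of 19 oligodendrocyte probe sets 18 were higher, led by Ugt8a (1.01 ± 0.25, limma, adjusted p = 0.123), with sums of 19.22 to 19.38 in SOD1 and 19.07 to 19.12 in WT. All 6 endothelial probe sets were lower, led by Cldn5 (-1.80 ± 0.34, limma, adjusted p = 0.068), with sums of 11.67 to 12.52 in SOD1 and 12.49 to 13.41 in WT. Of 8 mural cell probe sets 7 were lower, led by Acta2, which fell by 5.02 ± 0.77 (limma, adjusted p = 0.0327), with sums of 12.56 to 14.30 in SOD1 and 14.56 to 15.94 in WT. All 4 meningeal fibroblast probe sets were lower, led by Col1a2 (-2.58 ± 0.67, limma, adjusted p = 0.138), but their sums overlapped, at 12.62 to 15.86 in SOD1 and 14.31 to 16.40 in WT. The motor neuron list held 12 probe sets, 7 of them lower, with sums of 19.16 to 19.24 in SOD1 and 19.22 to 19.42 in WT, and each of the 12 was above background on all 6 arrays, while Mnx1 did not pass the filter. Ache had the smallest p of that list (-1.06 ± 0.25, limma, adjusted p = 0.117). In the other lists the smallest p values belonged to Slc17a6 of other neurons (1.44 ± 0.58, limma, adjusted p = 0.286), Vcan of oligodendrocyte precursors (1.56 ± 0.63, limma, adjusted p = 0.286), Folr1 of choroid plexus (-0.63 ± 0.81, limma, adjusted p = 0.757) and S100a8 of blood (-2.77 ± 1.17, limma, adjusted p = 0.311). Of 8 probe sets of other neurons 6 were higher. Unlike Vcan, 3 of 5 oligodendrocyte precursor probe sets were lower, with a median of -0.12. Choroid plexus had 3 lower and 2 higher, and blood had only 1 probe set tested. Astrocyte and oligodendrocyte markers gave signal in WT as well, with the sums given above, so the values are not those of motor neurons alone in either group. In such samples, fewer cells of a type and less RNA per cell cannot be told apart, and the part of these shifts in the results on guidance genes was not tested.

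Most guidance probe sets were lower in SOD1, by a small amount. Of the 83 tested, 63 had a difference below 0 and 20 above it, against 50.5% below 0 among all 27022 probe sets tested. Their median difference was -0.27, against -0.01 over all probe sets tested. With 1 probe set per gene, the one with the highest mean, 37 of 48 genes were below 0 and the median was -0.32, against 51.0% and -0.01 for 13123 genes. One member, Sema7a, fell past the threshold (limma, adjusted p under 0.05 over all 27022 probe sets), and 0 rose. Over all probe sets tested 0.185% passed, 0.122% lower and 0.0629% higher in SOD1. At an unadjusted limma p under 0.05, 10 members were lower and 1 was higher, against 7.58% and 7.09% of all probe sets, and all 11 are described below. The groups did not overlap for 12 members with SOD1 lower, or 14.5% of the 83, and for 2 with SOD1 higher, or 2.41%, against 9.81% and 10.5% of all probe sets. These shares describe the list, and no test sets it apart from other genes.

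**Figure D1:**
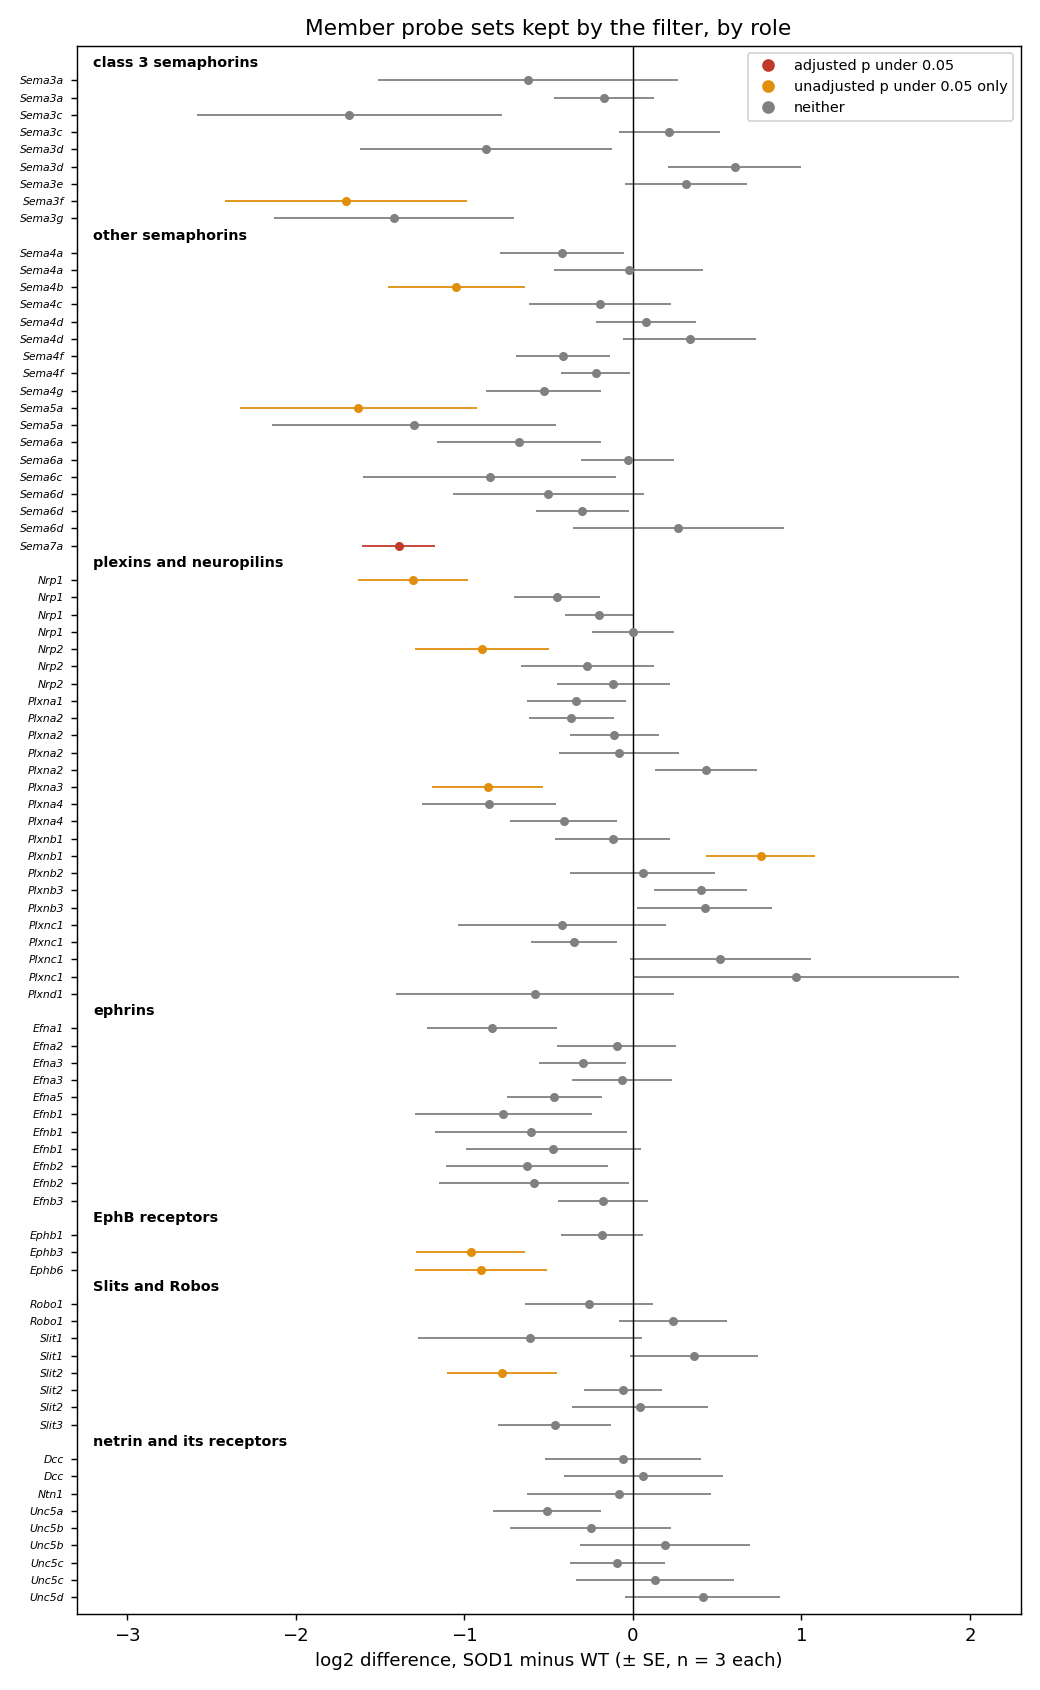
Log2 difference between SOD1 and WT (x axis, ± SE, n = 3 arrays each) for the 83 member probe sets tested, in rows grouped by role, with colours for the test. All 11 ephrin and all 3 EphB probe sets lie left of 0, and the only probe set past the threshold over all probe sets is that of Sema7a.

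The arrays contributed unequally. The median member stood at -0.14, -0.26 and -0.37 relative to the WT mean on SOD1 replicates 1, 2 and 3, and at 0.03, -0.10 and 0.08 on the WT replicates. All 3 SOD1 arrays were therefore below all 3 WT arrays, with WT replicate 2 nearest to them, and over all probe sets tested the same medians lay between 0.01 and 0.04. SOD1 replicate 3 had the lowest of the 6 values for 29 of the 83 members, or 34.9%, against 19.0% of all probe sets. Without that array the members' median was -0.18 and 64.6% were below 0.

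**Figure D2:**
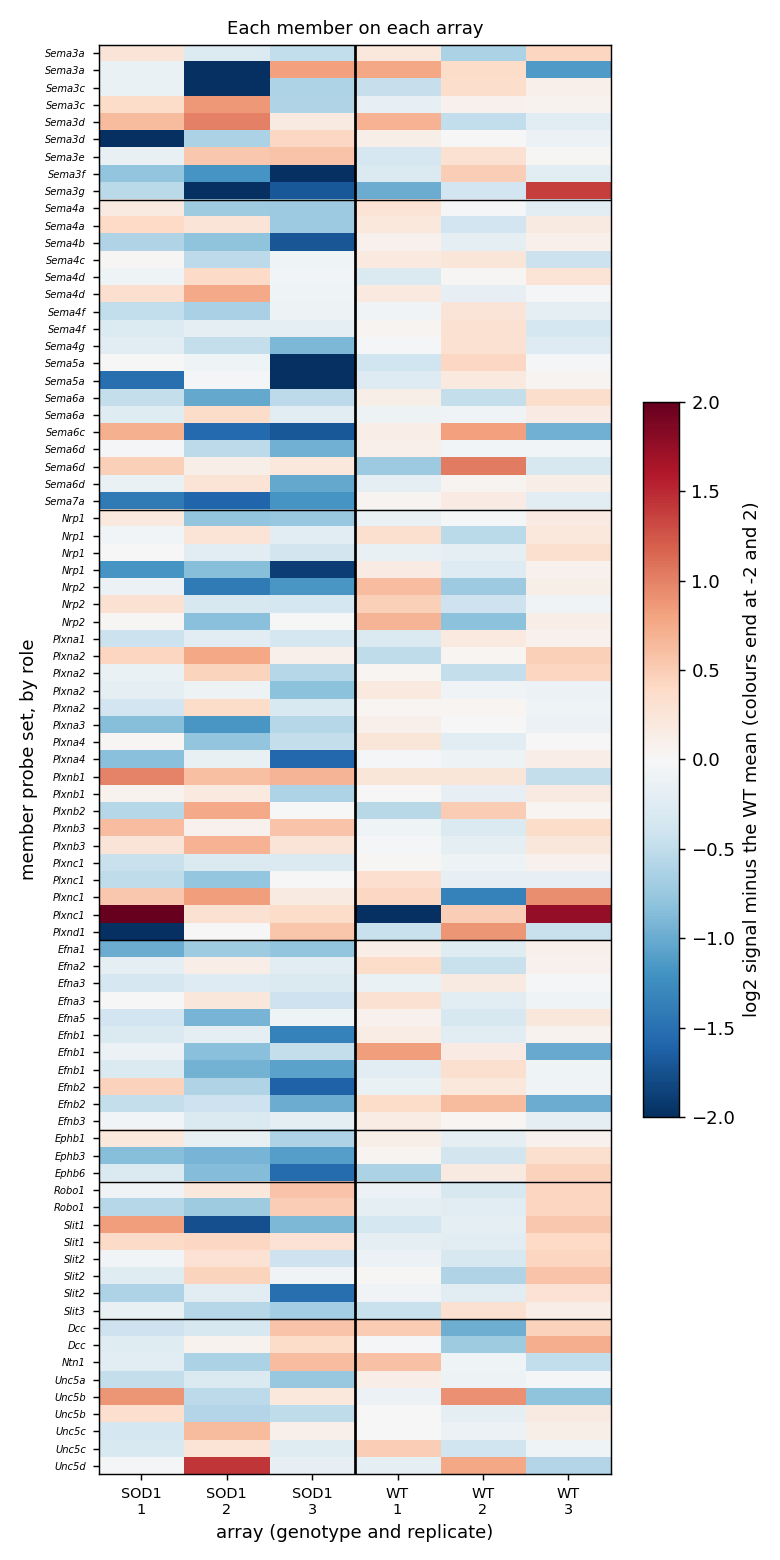
Each row is a member probe set and each column an array, with SOD1 left of WT, and the colour gives log2 signal minus the WT mean of that probe set (colour scale from -2 to 2). Blue, for lower than WT, is densest on SOD1 replicate 3, which held the lowest value for 29 of 83 members.

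The upstream sequence of 3 genes is shown because of their place in the test: Sema7a, the member that passed, Nrp1, with the next smallest p, and Plxnb1, the 1 gene among the tested members with an unadjusted p under 0.05 that was higher in SOD1. Each is 300 bases of the RefSeq promoter table (GRCm38.p6), 250 before and 50 after the start of the gene, 5' to 3' on the plus strand, with each GC box (GGGCGG, or CCGCCC for the other strand) in capitals. Sema7a lies at chr9:57939862-57940161, Nrp1 at chr8:128358823-128359122 and Plxnb1 at chr9:109095186-109095485.
Sema7a: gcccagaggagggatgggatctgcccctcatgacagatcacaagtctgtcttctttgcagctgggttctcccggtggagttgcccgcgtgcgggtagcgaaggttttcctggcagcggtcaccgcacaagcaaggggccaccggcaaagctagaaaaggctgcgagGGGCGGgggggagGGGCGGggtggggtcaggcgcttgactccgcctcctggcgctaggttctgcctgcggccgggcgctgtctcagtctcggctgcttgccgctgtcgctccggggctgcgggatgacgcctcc
Nrp1: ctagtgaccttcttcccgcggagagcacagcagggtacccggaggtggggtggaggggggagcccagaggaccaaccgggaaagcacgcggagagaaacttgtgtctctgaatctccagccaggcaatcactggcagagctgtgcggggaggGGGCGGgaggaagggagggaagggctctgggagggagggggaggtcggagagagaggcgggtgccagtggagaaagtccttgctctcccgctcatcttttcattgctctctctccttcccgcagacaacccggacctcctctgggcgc
Plxnb1: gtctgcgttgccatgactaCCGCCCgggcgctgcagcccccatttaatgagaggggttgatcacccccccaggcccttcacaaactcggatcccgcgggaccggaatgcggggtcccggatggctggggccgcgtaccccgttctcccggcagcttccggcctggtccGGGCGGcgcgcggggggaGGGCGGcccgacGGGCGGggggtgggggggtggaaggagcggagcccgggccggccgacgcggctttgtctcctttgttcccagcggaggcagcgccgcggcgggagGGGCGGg
The GC box was found 2 times for Sema7a, 1 time for Nrp1 and 5 times for Plxnb1, and G and C made up 67.3% of the bases of Sema7a, 64% of those of Nrp1 and 74.7% of those of Plxnb1. Of the 11 genes with an unadjusted p under 0.05, 10 had an entry, with 11 windows in all, and Sema3f had none. All 11 windows held a GC box, against 35.7% of 32851 windows in the table. Each of the 11 was also richer in G and C than the median of all windows, at 52.7%. The 2 shares of GC boxes therefore do not compare windows of like base content. Windows of the other members were not counted, and a link between the GC box and the change in SOD1 was not tested. A TATA box (TATAAA, or TTTATA for the other strand) was found in 1 of the 11, that of Slit2, against 13.6% of all windows. The GC and TATA letters cannot overlap, no matches overlap in the sequences shown, and a match is a description of the letters, not of a bound factor. These arrays did not measure promoters.

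Sema7a is a semaphorin held to the membrane by a lipid anchor, which binds plexin C1 and integrins and promotes axon growth. It read 12.04, 11.87 and 12.27 in SOD1 and 13.50, 13.62 and 13.23 in WT. The 3 SOD1 arrays lay close together and all below WT. It fell 2.62-fold, by 1.39 ± 0.22 on the log2 scale (limma, adjusted p = 0.0345). A second probe set of Sema7a did not pass the filter, with 5.95, 7.79 and 5.01 in SOD1 and 7.24, 5.71 and 4.99 in WT, mostly at background. With each array left out the difference stayed between -1.51 and -1.29, but the adjusted p (limma) was above 0.05 when any 1 of SOD1 replicates 1, 2 and 3 or WT replicates 1 and 2 was left out (0.0627 to 0.196), and 0.0406 without WT replicate 3. The call was also lost with median centring (-1.34, limma, adjusted p = 0.0549), with no variance trend (adjusted p = 0.314), and with the level of Xist as a term (-1.24, adjusted p = 0.104). It held in 9 of 18 alternatives, and the difference was negative in all 18.

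Plexin C1, the plexin that binds Sema7a, gave mixed readings over its 4 tested probe sets. One read 10.96, 11.11 and 11.11 in SOD1 and 11.43, 11.30 and 11.49 in WT, which do not overlap but differed by only -0.35 ± 0.26 (limma, adjusted p = 0.564). The others differed by 0.97 ± 0.97, 0.52 ± 0.54 and -0.42 ± 0.62, with none at an unadjusted p under 0.05. The first of these was 4.96 on WT replicate 1, below background, and it was at -0.15 without that array, 1.84 without WT replicate 3 and 0.63 with a pseudocount of 64.

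**Figure D3:**
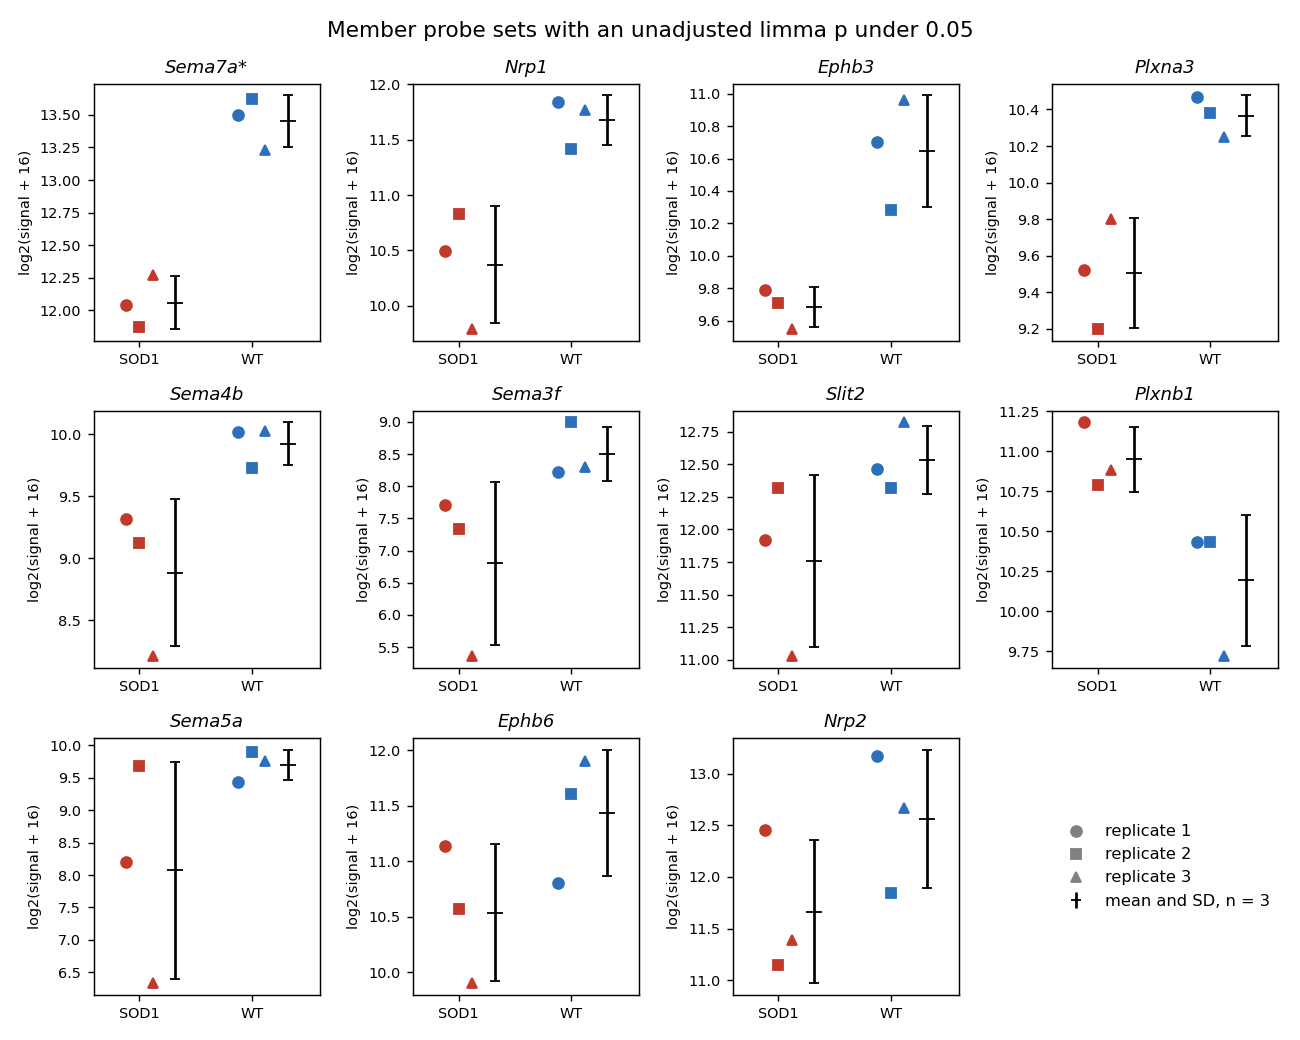
Log2(signal + 16) on each array for the 11 member probe sets with an unadjusted limma p under 0.05, SOD1 in red and WT in blue, with the mean and SD of each group (n = 3). The groups are apart for Sema7a (marked *, adjusted p = 0.0345), Nrp1, Ephb3, Plxna3, Sema4b, Sema3f and Plxnb1, and they overlap or touch for the other 4.

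Among the transmembrane semaphorins, which do not include the lipid-anchored Sema7a, 14 of 17 probe sets were below 0 and 0 passed over all probe sets. Sema4b, which binds a postsynaptic scaffold protein, read 9.32, 9.12 and 8.21 in SOD1 and 10.02, 9.73 and 10.03 in WT. SOD1 was lower on every array, by 1.05 ± 0.40 (limma, unadjusted p = 0.0249, adjusted p = 0.267), with -0.70 without SOD1 replicate 3 and -1.59 with the level of Xist as a term (limma, adjusted p = 0.168).

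Sema5a, a semaphorin with thrombospondin repeats, varied widely among the SOD1 arrays. It read 8.20, 9.68 and 6.33 in SOD1 and 9.44, 9.90 and 9.76 in WT (difference -1.63 ± 0.70, limma, unadjusted p = 0.0403, adjusted p = 0.319). SOD1 replicate 3 was below the background level while SOD1 replicate 2 lay within the WT range. A second probe set showed the same array apart, at 9.82, 9.72 and 6.02 in SOD1 and 9.42, 10.23 and 9.79 in WT (-1.30 ± 0.84). The first was at -0.75 without SOD1 replicate 3 and at -2.45 without SOD1 replicate 2. With the level of Xist as a term it was at -3.04 (limma, unadjusted p = 0.000844, adjusted p = 0.0923), in a fit that rests largely on SOD1 replicate 3.

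No other class 4 or class 6 probe set that passed the filter had an unadjusted p under 0.05. Sema4d, a ligand of plexin B1, had the largest positive difference among those that passed, at 0.34 ± 0.39, with 9.35, 9.77 and 8.93 in SOD1 and 9.20, 8.85 and 8.98 in WT. It was at 0.13 without SOD1 replicate 2, 0.54 without SOD1 replicate 3 and 0.19 with the values as deposited, its sign turned with the level of Xist as a term (-0.023), and its second probe set was at 0.08 ± 0.30. Sema4g was at -0.53 ± 0.34, the 2 Sema4f probe sets at -0.41 ± 0.28 and -0.22 ± 0.20, and Sema4c at -0.20 ± 0.42. The 3 Sema6d probe sets ranged from -0.50 to 0.27, and those of Sema6a were at -0.67 ± 0.49 and -0.03 ± 0.27. Sema4a was at -0.42 ± 0.37 and -0.02 ± 0.44. Sema6c was at -0.85 ± 0.75, with 9.11, 6.85 and 6.71 in SOD1 and 8.54, 9.23 and 7.44 in WT, which overlap.

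The secreted class 3 semaphorins spread widely, with 6 of 9 probe sets below 0, a range from -1.70 to 0.60 and 0 past the threshold. Sema3f, a repellent that binds neuropilin 2, read 7.71, 7.33 and 5.36 in SOD1 and 8.22, 8.99 and 8.30 in WT. The groups do not overlap (-1.70 ± 0.72, limma, unadjusted p = 0.0365, adjusted p = 0.309), but 2 of the SOD1 arrays were at the background level, and the difference was -0.98 without SOD1 replicate 3 and -2.89 with the level of Xist as a term (limma, unadjusted p = 0.00344, adjusted p = 0.136). Its identifier marks a probe set that can match other transcripts. Sema3g, a class 3 semaphorin of vessel walls, was at -1.41 ± 0.71, with 8.11, 6.65 and 6.95 in SOD1 and 7.65, 8.27 and 10.03 in WT, where SOD1 replicate 1 lay inside the WT range and the other SOD1 arrays were at background. The endothelial and mural markers given above were lower in SOD1 too, and their part in the result was not tested.

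Sema3a, the founding repellent of the class, read 13.37, 12.85 and 12.62 in SOD1 and 13.32, 12.49 and 13.54 in WT on 1 probe set, a difference of -0.17 ± 0.30 that was below the SD of either group, and was at -0.62 ± 0.89 on the other. Sema3c gave 14.42, 14.92 and 13.45 in SOD1 and 13.89, 14.14 and 14.11 in WT (0.22 ± 0.30). Its other probe set was at -1.68 ± 0.90, with 5.06 on SOD1 replicate 2, below background, against 9.21 and 8.72 on the other SOD1 arrays and 8.88 to 9.70 in WT. Sema3d had the largest positive difference of the class, at 0.60 ± 0.40 (limma, adjusted p = 0.514), with 10.45, 10.82 and 10 in SOD1 and 10.51, 9.32 and 9.61 in WT, while its other probe set was at -0.87 ± 0.75. The first was at 0.96 without WT replicate 1, at 0.36 without WT replicate 2 and at 0.20 with the level of Xist as a term. Sema3e was at 0.32 ± 0.36.

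The neuropilins bind class 3 semaphorins and vascular growth factors, and all 7 of their tested probe sets were below 0. Nrp1 had 4 of them, and they disagreed in size. One read 10.49, 10.83 and 9.79 in SOD1 and 11.84, 11.42 and 11.77 in WT, with every SOD1 array below every WT array. It was 2.47-fold lower (-1.31 ± 0.33, limma, unadjusted p = 0.00209), which did not pass over all probe sets (adjusted p = 0.131), and it was between -1.53 and -1.01 with 1 array left out. The other 3 Nrp1 probe sets differed by -0.45 ± 0.26, -0.20 ± 0.20 and -0.00139 ± 0.24, with overlapping groups, and for the last of these SOD1 and WT both averaged 13.69.

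Nrp2 read 12.45, 11.15 and 11.39 in SOD1 and 13.17, 11.84 and 12.67 in WT on 1 probe set. The groups overlap, since SOD1 replicate 1 is above WT replicate 2 (-0.90 ± 0.40, limma, unadjusted p = 0.0452, adjusted p = 0.331). Without WT replicate 1 it was at -0.59, and with the level of Xist as a term at -1.13 (limma, unadjusted p = 0.0586, adjusted p = 0.368). The other Nrp2 probe sets were at -0.27 ± 0.39 and -0.12 ± 0.33.

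Plexins signal for all classes of semaphorins, and the plexin A and plexin B probe sets are described apart. Of 8 plexin A probe sets 7 were below 0, with a median of -0.35. Of 5 plexin B probe sets 4 were above 0, with a median of 0.40. None passed over all probe sets, and the difference between these subfamilies was not tested.

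Plxna3, a partner of the neuropilins, read 9.52, 9.20 and 9.80 in SOD1 and 10.47, 10.38 and 10.25 in WT, with no overlap (-0.86 ± 0.33, limma, unadjusted p = 0.0237, adjusted p = 0.263). Its gene is on the X chromosome, as are those of Plxnb3 and Efnb1. With the level of Xist as a term Plxna3 was at -0.63 (limma, unadjusted p = 0.162, adjusted p = 0.542). Plxna4, another partner of the neuropilins, read 9.54, 10.24 and 8.82 in SOD1 and 10.36, 10.28 and 10.51 in WT on 1 probe set (-0.85 ± 0.40) and was at -0.41 ± 0.32 on the other. Plxna1 was at -0.33 ± 0.29. The 4 Plxna2 probe sets ranged from -0.36 to 0.43.

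Plxnb1, the receptor of Sema4d, was the 1 member that passed the filter and was higher in SOD1 at an unadjusted p under 0.05. It read 11.18, 10.79 and 10.88 in SOD1 and 10.43, 10.43 and 9.72 in WT, with every SOD1 array above WT, a 1.69-fold difference (0.76 ± 0.32, limma, unadjusted p = 0.0375, adjusted p = 0.312). This probe set was at 0.65 with the level of Xist as a term (limma, unadjusted p = 0.16, adjusted p = 0.54). A second Plxnb1 probe set was at -0.12 ± 0.34, with overlapping groups. The 2 probe sets of Plxnb3, a plexin of oligodendrocytes, were at 0.43 ± 0.40 and 0.40 ± 0.28. The second of these read 11.32, 11.77 and 11.33 in SOD1 and 11.03, 10.88 and 11.30 in WT, which do not overlap by a narrow margin. Of the oligodendrocyte probe sets given above 18 of 19 were higher in SOD1, and their part in the result was not tested. Plxnb2 was at 0.06 ± 0.43, and Plxnd1, a plexin of vessels, was at -0.58 ± 0.83.

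Ephrins were below 0 on all 11 tested probe sets of 7 genes, from -0.84 to -0.07 with a median of -0.47, yet 0 had an unadjusted p under 0.05. Efna1, an ephrin held by a lipid anchor and made by endothelium among other cells, had the largest difference. It read 8.40, 8.68 and 8.60 in SOD1 and 9.53, 9.16 and 9.50 in WT, with no overlap (-0.84 ± 0.39, limma, unadjusted p = 0.0534, adjusted p = 0.349). Efna5 was at -0.46 ± 0.28 and Efna2 at -0.10 ± 0.35. The Efna3 probe sets were at -0.30 ± 0.26 and -0.07 ± 0.30, and the first of them did not overlap, with 11.11, 11.18 and 11.15 in SOD1 and 11.31, 11.62 and 11.40 in WT.

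Among the transmembrane ephrins, the 3 probe sets of Efnb1 lay at -0.77 ± 0.52, -0.60 ± 0.57 and -0.47 ± 0.52, and the 2 of Efnb2, an ephrin of arteries, at -0.63 ± 0.48 and -0.59 ± 0.56. Efnb3 read 11.13, 10.89 and 11 in SOD1 and 11.33, 11.22 and 11.01 in WT (-0.18 ± 0.27). The ephrin-A median was -0.30 over 5 probe sets and the ephrin-B median -0.60 over 6.

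The EphB receptors, which bind these ephrins, were below 0 on all 3 tested probe sets, those of Ephb1, Ephb3 and Ephb6. Ephb2 had no probe set among the members. Ephb3 read 9.79, 9.71 and 9.55 in SOD1 and 10.70, 10.28 and 10.96 in WT, with every SOD1 array below WT, a 1.95-fold difference (-0.96 ± 0.32, limma, unadjusted p = 0.0126, adjusted p = 0.217). Ephb6, which lacks kinase activity, read 11.14, 10.57 and 9.90 in SOD1 and 10.80, 11.61 and 11.90 in WT (-0.90 ± 0.39, limma, unadjusted p = 0.0416, adjusted p = 0.323). Its groups overlap through SOD1 replicate 1 and WT replicate 1, and it was at -0.58 without SOD1 replicate 3. Ephb1 was at -0.18 ± 0.24, with 13.26, 12.90 and 12.44 in SOD1 and 13.17, 12.85 and 13.13 in WT, and the only probe set of Ephb4 did not pass the filter.

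The Slit ligands and Robo receptors showed no common direction, with 5 of 8 probe sets below 0. Slit2 was read by 3 probe sets. One gave 11.92, 12.32 and 11.03 in SOD1 and 12.46, 12.32 and 12.82 in WT (-0.77 ± 0.33, limma, unadjusted p = 0.0373, adjusted p = 0.311), where SOD1 replicate 2 equals WT replicate 2 as printed, and it was at -0.41 without SOD1 replicate 3 and at -1.34 with the level of Xist as a term (limma, unadjusted p = 0.00303, adjusted p = 0.132). The others were at -0.06 ± 0.23, with 14.19, 14.53 and 13.83 in SOD1 and 14.13, 13.93 and 14.67 in WT, and at 0.04 ± 0.40. Slit1 was at 0.36 ± 0.38 (0.56 without WT replicate 3, 0.23 with the values as deposited) and -0.61 ± 0.66 on its 2 probe sets, Slit3 at -0.46 ± 0.33, and Robo1, a Slit receptor, at 0.24 ± 0.32 and -0.26 ± 0.38. The 1 probe set of Robo2 did not pass the filter.

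Netrin 1 and its receptors were centred on 0, with 5 of 9 probe sets below it and a median of -0.06. Unc5a, a repulsive receptor, read 9.77, 9.97 and 9.49 in SOD1 and 10.39, 10.15 and 10.22 in WT, with no overlap (-0.51 ± 0.32, limma, unadjusted p = 0.14, adjusted p = 0.494). Unc5d had the largest positive value, at 0.41 ± 0.46, with 11.16, 12.61 and 11.03 in SOD1 and 11, 11.96 and 10.6 in WT, and no stable sign. It was at 0.63, -0.088 and 0.70 without SOD1 replicates 1, 2 and 3, at 0.81 and 0.12 without WT replicates 2 and 3, at 0.21 with array weights and at -0.10 with the level of Xist as a term. Dcc, the attractive receptor, was at 0.06 ± 0.47 and -0.06 ± 0.46, Ntn1 at -0.08 ± 0.54, Unc5c at 0.13 ± 0.47 and -0.09 ± 0.28, and Unc5b at 0.19 ± 0.50 and -0.25 ± 0.48.

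Probe sets of the same gene often differed in sign. Of 25 genes with more than 1 tested probe set, 11 were below 0 on all of them, 2 were above 0 on all, and 12 had both signs. The 11 with a single sign below 0 include Nrp1, Nrp2, Efnb1, Efnb2, Plxna4 and Sema5a, and the 2 above 0 are Sema4d and Plxnb3.

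**Figure D4:**
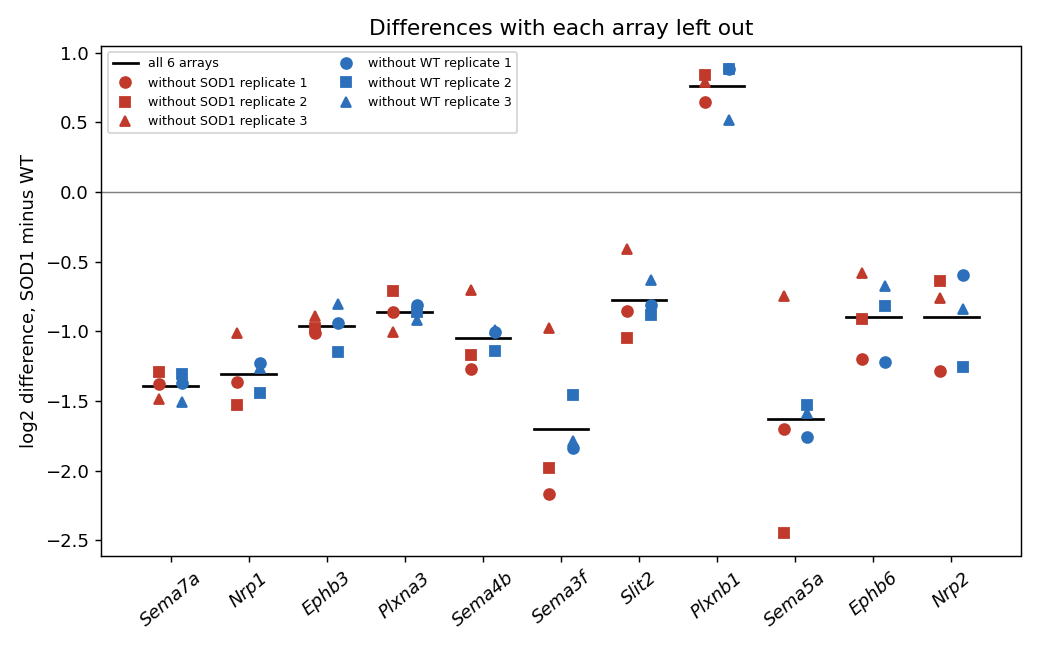
Log2 difference between SOD1 and WT (y axis) for the same 11 probe sets with all 6 arrays (black lines) and with each array left out (symbols). Sema7a keeps between -1.51 and -1.29, whereas Sema5a is at -0.75 without SOD1 replicate 3.

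The 38 member probe sets below the filter were not tested in the main comparison, and Ephb4, Efna4, Sema3b, Plxna4os1, Sema5b, Robo2 and Sema6b had no other. Of the 38, 21 were below 0 and 17 above. Sema6b, a transmembrane semaphorin that binds plexin A4, stood out after its values were seen. It read 9.02, 8.30 and 8.19 in SOD1 and 6.11, 5.67 and 6.66 in WT, so that all SOD1 arrays were above background and all WT arrays were at background. With WT set at the background level, Sema6b was estimated at 2.34-fold higher or more in SOD1, a value from 3 arrays without an SE. With no filter its unadjusted p was 0.00463 and its adjusted p (limma) 0.207, which did not pass.

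Further genes of the pathway came from a list of receptors and ligands and a list of signalling genes, and 0 of either passed the threshold. Of 51 probe sets of further guidance receptors and ligands, 34 were below 0 (median -0.19), against 50.5% of all probe sets tested. At an unadjusted limma p under 0.05, 8 were lower and 0 higher in SOD1, against 7.58% and 7.09% of all probe sets. L1cam, an adhesion molecule that associates with neuropilin 1, read 14.44, 14.02 and 14.16 in SOD1 and 14.98, 15.49 and 14.84 in WT (-0.90 ± 0.19, limma, adjusted p = 0.0938). Dscam, a netrin receptor, was at -1.50 ± 0.45, Cntn2, an axonal adhesion molecule, at -1.02 ± 0.33, and Flrt2, a ligand of Unc5 receptors, at -0.91 ± 0.32. The EphA receptors, which bind the ephrin-A ligands, had 0 probe sets at an unadjusted p under 0.05, with Epha5 at 0.89 ± 0.44 and Epha7 at -1.27 ± 0.62 having the smallest p among them.

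Of 89 probe sets of the intracellular part of the pathway, 54 were below 0 (median -0.14), against 50.5% of all probe sets tested. At an unadjusted limma p under 0.05, 18 were lower and 4 higher in SOD1, against 7.58% and 7.09% of all probe sets. The 4 higher were probe sets of Chn1 (1.19 ± 0.46), Rock1 (1.35 ± 0.53, with overlapping groups), Vav3 (0.68 ± 0.29) and Rhoa (0.60 ± 0.25), with adjusted p (limma) of 0.269 to 0.31. Cfl1, the actin-severing protein cofilin, read 15.86, 15.83 and 15.52 in SOD1 and 16.36, 16.50 and 16.34 in WT, with no overlap (-0.66 ± 0.12, limma, adjusted p = 0.058). It passed in 4 alternatives, and its probe set can match other transcripts. Trio, an exchange factor for Rac used by Dcc, was at -1.02 ± 0.25, Enah, which extends actin filaments, at -0.88 ± 0.24, and Grip1, an adaptor of the ephrin-B tail, at -1.11 ± 0.30. None of these 3 passed over all probe sets (adjusted p = 0.125, 0.146 and 0.147, limma). Other probe sets of these genes differed in size. Those of Trio included -0.90 ± 0.32, -0.45 ± 0.51 and -0.29 ± 0.19. Those of Enah included -1.72 ± 0.50 and -0.09 ± 0.16, and Grip1 had another at -1.01 ± 0.36.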

How the data were processed

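RNA from brainstem motor neurons of 3 SOD1 and 3 WT samples was amplified in 2 T7-based rounds, per the labels. The authors deposited a linear intensity for each probe set, scaled to a 2% trimmed mean of 2500.02 on all arrays. The labels name no algorithm, and detection calls were not used. Of 45101 probe sets, 64 controls were left out. Symbols come from the platform annotation, and all 121 member probe sets matched a RefSeq gene of the same symbol. Arrays were quantile normalised, 16 was added, log2 was taken, and 27022 probe sets above the 40th percentile were tested in R 4.3.3 by limma 3.58.1, two-sided, using eBayes and its trend option. The Benjamini-Hochberg adjustment ran over every probe set tested. The number of arrays limits the precision.

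Genes named are members past the threshold or at an unadjusted p under 0.05, the largest rise and fall of each role, their other probe sets, the 4 smallest p of each pathway list and the smallest of each marker list. Others, Sema6b among them, were named after their values were seen. Members, lists and settings were chosen with earlier results of these data known. Background was set, per array, at the 95th percentile of the 27 bacterial controls. Figures were drawn with matplotlib 3.10.9.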

Additional observations from a re-analysis of the deposited data

How the results depend on the processing

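Over 18 alternatives, the members' median stayed between -0.36 (values as deposited) and -0.18 (without SOD1 replicate 3), always below that of all probe sets, and 64.6% to 80.7% were below 0. Sema7a, the only member called in any alternative, was called in 9. The count of members called was 0 with median centring, with no variance trend, with the replicate block, with the Xist term and, over the 6 fits with 1 array left out, 0 to 1. Over all probe sets, 50 were called, against 87 with a pseudocount of 64, 106 with a filter at the 60th percentile, 0 with no variance trend (limma, where 9 members had an unadjusted p under 0.05, 8 of them lower), 100 with array weights, 76 with the replicate block and 25 without probe sets shared between transcripts, and 0 to 79 with 1 array left out (0 by limma without WT replicate 2, where 6 members were lower and 2 higher at an unadjusted p under 0.05, and 79 without WT replicate 3). Of the other pathway probe sets, 1 was called, Cfl1, with a pseudocount of 64, a filter at the 60th percentile, array weights and the Xist term, against 0. The sign turned for Sema4d (-0.023) and Unc5d (-0.10) with the Xist term, for Unc5d (-0.088) without SOD1 replicate 2 and for Plxnc1 (-0.15) without WT replicate 1, with 1 array left out giving up to 0.81 for Unc5d and 1.84 for Plxnc1. The causes were not tested. The labels give both groups replicate numbers 1 to 3, but same-numbered arrays did not deviate together (correlations across probe sets of 0.03, -0.04 and -0.01), so the replicate block, under which Sema7a had an adjusted p (limma) of 0.0527, is no paired analysis. Signal near background limits the members below the filter and some of those tested, as 65 of the 83 were above it on all 6 arrays. Tested members not above it on every array include Sema3f, Sema3g, Sema5a, Sema6c and Plxnd1, and probe sets of Sema3c, Slit1, Efnb1 and Efnb2.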
